A study of Mus musculus with 8 samples.

Results

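The 8 arrays of a mouse spleen study were compared by their replicate number: the 4 arrays whose labels name biologic replicate 1 were set against the 4 whose labels name biologic replicate 2, and each array was paired with the other array of its own group. All 8 of the 8 arrays of the series entered, as 4 pairs. Gene expression had been measured with Affymetrix whole-genome mouse arrays in splenocytes, the cells of the spleen, of male C57/BL6 mice. The mice carried an HMGA1a transgene (TG), which codes for an architectural chromatin protein, or were wild type control littermates (WT), and were sampled at 2 or 12 months of age. By the design text the TG mice develop lymphoid tumours, and the 2 ages lie before and after the tumours arise. The promoter of the transgene and whether spleens were pooled are not given in the sources used here. Per the labels, RNA was isolated with an RNeasy kit, amplified in 1 round from a T7 oligo-dT primer and labelled with biotin by ENZO in vitro transcription, and 1 core facility hybridised the arrays. The labels give no labelling, hybridisation or scan batch, so the replicate number is called only that here. The mice behind an array and any shared handling of the 4 arrays of a number cannot be told apart.

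On this type of array a transcript is read by a probe set, a group of short probes near its 3′ end, and several probe sets can read the same gene. Oligo-dT priming copies RNAs with a poly(A) tail, so 18S ribosomal RNA, which lacks a tail, is copied little. Biotin-labelled bioB, bioC, bioD and cre RNAs of bacterial or phage origin are usually added to the hybridisation mix in rising amounts, and 3′, middle and 5′ probe sets for beta-actin and Gapdh report how far copying reached along a transcript. A spleen holds B and T cells, macrophages and stroma, and in mice also red cell and granulocyte precursors.

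Values are signals on a linear scale that the authors had scaled on each array. Differences are replicate 2 minus replicate 1 of log2(signal + 16), fitted with limma over the 4 pairs, given ± SE, with p adjusted by Benjamini-Hochberg over all genes or probe sets tested. A positive value means higher in replicate 2, and a difference past an adjusted p of 0.05 is called. A p-value here says that the replicate difference was large against its spread over 4 pairs, and does not say what the number stands for. Arrays give no counts, so the number of pairs limits the precision.

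The replicate number separated the arrays more widely than age or genotype did. Of 11189 genes, 2940 (26.3%) were called, 1517 (13.6%) higher and 1423 (12.7%) lower in replicate 2, and 2899 of the 2940 went the same way in every pair. Differences were mostly modest in size: 139 called genes differed by more than 1 on the log2 scale, 53 higher and 86 lower. Over all genes, called or not, 2896 (25.9%) were higher in all 4 pairs and 2389 (21.4%) were lower in all 4, while the median difference was 0.04. Among the 22551 probe sets kept, controls included, 6209 (27.5%) were called, 3045 (13.5%) higher and 3164 (14%) lower. The root mean square difference over genes was 0.37 between replicate numbers. It was 0.21 between 12 and 2 months and 0.213 between TG and WT, each also 4 arrays against 4 and with the replicate number as a block. These last comparisons called 27 genes (0.241%) and 2 genes (0.0179%), and were added after the data were seen. Of the total sum of squares over genes, the replicate number held 40.7% on 1 degree of freedom, the 4 groups 36.1% on 3 and the residual 23.2% on 3. The median share per gene was 31.3% for the replicate number, 33.7% for the groups and 20.9% for the residual.

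The 4 pairs shared much of this difference but not all of it. Across the 11189 genes, the replicate differences of 2 pairs correlated with r from 0.464 (2-month TG with 12-month TG) to 0.654 (2-month WT with 2-month TG). No pair shares an array with another, and genes are not independent points. No gene passed the limma test of a replicate difference that differs between ages (0% of 11189, 769 genes with an unadjusted p under 0.05, lowest adjusted p 0.691) or between genotypes (0%, 313 genes with an unadjusted p under 0.05, lowest adjusted p 0.999). With both terms in 1 model, 1 gene passed for age and 0 passed for genotype (478 unadjusted). Leaving out the 2-month WT pair left 1190 called genes, against 1750 without the 2-month TG pair, 1907 without the 12-month WT pair and 2709 without the 12-month TG pair.

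The ribosomal RNA probe sets gave the widest gaps among the controls. The 18S 3′ probe set read 105, 91.5, 174 and 113 on the replicate 1 arrays of the 2-month WT, 2-month TG, 12-month WT and 12-month TG groups (mean 121 ± 36.5, SD, n = 4), and 1162, 975, 888 and 842 on the replicate 2 arrays in the same order (967 ± 141). Every replicate 2 array was above every replicate 1 array, and the difference was 2.87 ± 0.17 (adjusted p 0.000149 by limma). The middle 18S probe set read 63.4 to 110 against 408 to 514 (2.23, adjusted p 0.000126 by limma) and the 5′ one 78.2 to 99.7 against 248 to 343 (1.55, adjusted p 0.000281). The replicate difference thus decreased from the 3′ to the 5′ probe set, and the 3′ to 5′ ratio of 18S was 1.13 to 1.9 on replicate 1 and 2.45 to 3.92 on replicate 2 arrays. These 3 differences were nearly the same after quantile normalization (2.87, 2.23 and 1.54).

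The spiked RNAs also followed the replicate number, but unevenly, and for cre not under every scaling. Of 18 probe sets for bioB, bioC, bioD and cre, 13 were called higher in replicate 2 and none lower, where 13.5% of all probe sets were called higher. All 12 for bioC, bioD and cre were called higher, with differences of 0.34 to 1.11. The 4 for cre (0.39 to 0.52), however, were -0.23 to -0.04 under quantile normalization. Of the 6 for bioB 1 was called (0.32 ± 0.09, adjusted p 0.0284 by limma). For BioC the 3′ probe set read 926, 809, 818 and 958 on replicate 1 and 1711, 1726, 1920 and 2113 on replicate 2 arrays, a difference of 1.07 ± 0.09. The 5′ probe set of that spike read 967 to 1104 against 1241 to 1402, a difference of 0.34 ± 0.08. For BioD the order was the other way: 1.11 ± 0.08 at the 5′ probe set and 0.34 ± 0.07 at the 3′ one. A further pair of probe sets for the same RNAs gave 0.83 at the 3′ and 0.74 at the 5′ end of bioC, and 0.62 and 0.64 for bioD. A single spiked RNA thus gave differences that depended on the probe set reading it. The BioB middle probe set read 673 to 846 on replicate 1 and 613 to 702 on replicate 2 arrays (-0.21 ± 0.09, adjusted p 0.108 by limma). The 27 probe sets for Bacillus RNAs, which are added to a sample before labelling where they are used, read at most 31 on any array and passed no filter.

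**Figure D1:**
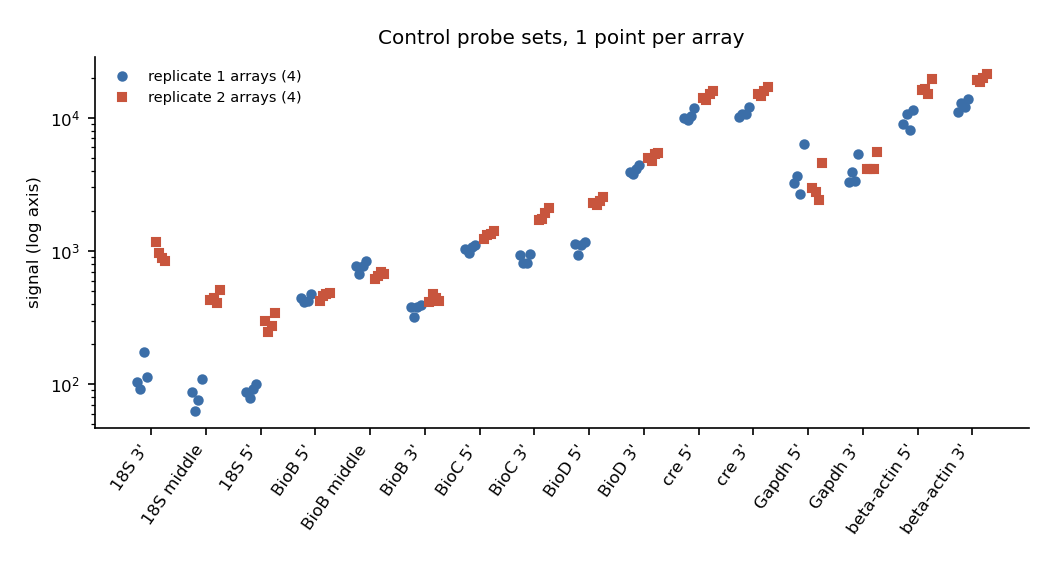
Signal of 16 control probe sets on each of the 8 arrays, on a log axis; circles are the 4 replicate 1 arrays and squares the 4 replicate 2 arrays, each in the order 2-month WT, 2-month TG, 12-month WT, 12-month TG. The 18S probe sets and the BioC 3′ and BioD 5′ probe sets separate widely, while the BioB and Gapdh probe sets overlap or nearly so; the gaps of cre and of the 3′ beta-actin probe set close or turn under quantile normalization.

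The control probe sets for mouse messenger RNAs diverged from each other. Beta-actin, the main cytoskeletal actin, read 11141, 12858, 12112 and 13743 at its 3′ probe set on replicate 1 and 19231, 18592, 19819 and 21391 on replicate 2 arrays. Its 3 probe sets were called higher by 0.67 to 0.78, although after quantile normalization the 3′ one was at -0.02, the middle one at 0.09 and the 5′ one at 0.22. Gapdh, a glycolytic enzyme, was called lower at its 5′ probe set (-0.28 ± 0.09, adjusted p 0.0425 by limma) and was not called at its 3′ (0.20 ± 0.08) and middle (0.10 ± 0.08) probe sets. The Gapdh 3′ to 5′ ratio was 0.843 to 1.25 on replicate 1 and 1.21 to 1.73 on replicate 2 arrays, higher in replicate 2 in all 4 pairs. The beta-actin ratio was 1.2 to 1.48 against 1.1 to 1.31, lower in replicate 2 in all 4 pairs. The exact 2-sided sign-flip permutation test gives p = 0.125 for each of these ratios, the smallest that 4 pairs allow. The 2 ratios therefore moved in opposite directions with the replicate number.

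The range of the signals differed too. The highest signal of an array was 13794 to 16610 on replicate 1 and 20868 to 23840 on replicate 2 arrays. The 99th percentile overlapped (3057 to 3369 against 3166 to 3356). At the low end, 27.4% to 28.7% of the signals lay under 16 on replicate 1 arrays and 25% to 26.6% on replicate 2 arrays, and the median signal was 44.9 to 46 against 47.5 to 49.5. The trimmed mean, without the lowest and highest 2% of the signals, was 150.001 on every array. Of the 100 genes with the highest mean signal, 66 were called higher and 2 lower, with a median difference of 0.41. Without the 2-month WT pair 40 were called higher and 1 lower, where 4.43% and 6.2% of all genes were. After quantile normalization, which gives all arrays the same distribution, 19 of these 100 genes were higher and 17 lower, with a median of 0.01, and after cyclic loess 52 and 7, with a median of 0.21. Over all genes the scalings changed little: 1488 higher and 1398 lower under quantile normalization, and 2784 of the 2940 called genes called in the same direction.

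Single genes differed by more than this shift at the top of the range. By smallest p among those that went 1 way in all pairs, 12 genes higher in replicate 2 were Rpl27a, Dnase1l3, Sod1, Rpf2, Jund, Srrm2, Bcl9l, Mtdh, Ptp4a2, Ubn1, Zwint and Acsf2. Rpl27a, a protein of the large ribosomal subunit, read 667, 673, 611 and 897 on the replicate 1 and 2642, 2849, 2333 and 2989 on the replicate 2 arrays. Dnase1l3, a secreted DNA nuclease of macrophages and dendritic cells, read 267, 326, 385 and 258 against 1305, 1140, 1285 and 995. Sod1, the cytosolic superoxide dismutase, read 1655 to 1810 against 3552 to 4034. In each of the 12, all replicate 2 arrays were above all replicate 1 arrays, which the way they were picked makes likely. The share of all genes without overlap was not counted. The differences were 1.91 ± 0.08 for Rpl27a, 1.89 ± 0.10 for Dnase1l3 and 1.11 ± 0.07 for Sod1, with adjusted p of 0.000149, 0.000253 and 0.000494 by limma. Acsf2, an acyl-CoA synthetase family member, read 7.9 to 20.2 on replicate 1 and 71.2 to 198 on replicate 2 arrays. It passed the filter through the replicate 2 arrays, so no difference is given for it. Jund, an AP-1 transcription factor (1.18 ± 0.09), Srrm2, a spliceosome component (1.74 ± 0.13), and Rpf2, a ribosome assembly factor (1.57 ± 0.10), were also higher by their brightest probe sets.

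The 12 genes lower in replicate 2 were Sp3, Gpaa1, Fli1, Alyref, Lypla1, Cdkn1b, Gsdme, Hnrnpl, Eif4a1, Tuba1a, C1d and Hnrnpu. Sp3, a transcription factor of GC boxes, read 674, 567, 505 and 736 on the replicate 1 and 161, 156, 117 and 175 on the replicate 2 arrays (-1.92 ± 0.09). Fli1, an ETS factor of blood and endothelial cells, read 1162, 1134, 1115 and 1004 against 422, 401, 351 and 316 (-1.53 ± 0.08). Cdkn1b, which codes for the cell cycle inhibitor p27, read 726 to 986 against 281 to 390 (-1.22 ± 0.09). Alyref, an mRNA export factor, was at -1.90 ± 0.12, Hnrnpl and Hnrnpu, nuclear RNA-binding proteins, at -1.70 ± 0.12 and -0.87 ± 0.07, and Eif4a1, the helicase of translation initiation, at -1.11 ± 0.08. None of the 12 overlapped between the replicate numbers, which the way they were picked again makes likely. Under 13 other settings these 24 genes gave 310 values, of which 309 kept the direction and the call. The exception was Ptp4a2, whose difference was -0.09 when the probe sets of the gene were averaged. The 24 were picked by smallest p in these same data, so this count was nearly fixed in advance. Of all 2940 called genes, 1173 were also called without the 2-month WT pair.

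Whether a second probe set of the same gene gave the same answer was then asked. Of the 24 genes, 13 had further kept probe sets, 30 in all: 17 had the sign of the first, 8 were called in its direction and 4 in the opposite one. Sod1 was higher also by a second bright probe set (0.57 ± 0.08), as Fli1 (-0.72 ± 0.11) and Lypla1 (-0.73 ± 0.13) were lower. Dnase1l3 (-0.29), Srrm2 (-0.27 and 0.15) and Rpf2 (-0.29, -0.22 and 0.18) were not called by their other probe sets. Mtdh was called lower by 1 further probe set (-0.35) and higher by another (1.44). Ptp4a2, a phosphatase, was 0.91 ± 0.07 by its brightest probe set and -1.01 ± 0.12 by another. Gpaa1, a subunit of the GPI transamidase, read 522, 526, 617 and 544 on replicate 1 and 125, 91.1, 112 and 92 on replicate 2 arrays by its brightest probe set (-2.24 ± 0.11). By its second one it read 160 to 205 against 228 to 250 (0.36 ± 0.11, adjusted p 0.0406 by limma).

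Over the 4914 genes with at least 2 kept probe sets, the 2 brightest tracked each other less in the replicate difference than in age or genotype. The correlation across genes was 0.258 for the replicate difference, 0.517 for 12 minus 2 months and 0.45 for TG minus WT, although the replicate differences had the widest spread. The sign was the same in 58.1% of the genes for the replicate number, 64.9% for age and 63% for genotype, and among the genes in the top 10% by size of difference in 67.3%, 78.5% and 84.6%. Both probe sets were called for 577 genes: 446 in the same direction and 131 in opposite ones. The 12 widest of these 131 were Gpaa1, Kdm5a, Rbm25, Sox4, Otub1, Akap2, Crebbp, Irf2bpl, Mdh1, Gm2a, Pja2 and Prdm2, a list made after the values were seen. Kdm5a, a histone demethylase, read 434, 370, 300 and 350 on replicate 1 and 231, 196, 202 and 203 on replicate 2 arrays by its brightest probe set, and 76, 58.5, 49 and 77.3 against 270, 200, 228 and 236 by the second. Neither overlapped between the replicate numbers, and the directions were opposite. Rbm25, a splicing regulator, was 1.24 ± 0.15 by its brightest and -1.10 ± 0.10 by its second probe set. Malat1, an abundant nuclear RNA, was alike in both: 2.72 and 2.81.

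**Figure D2:**
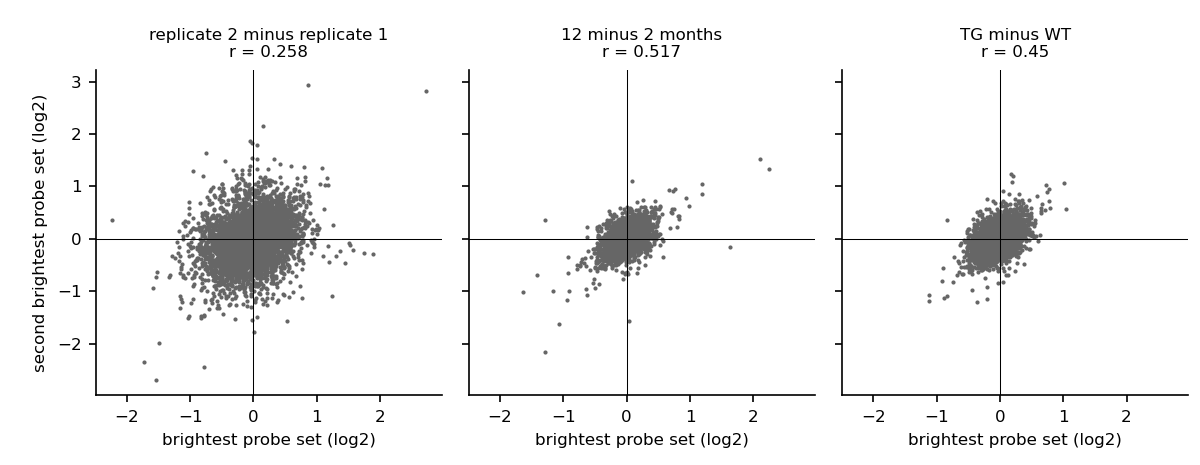
Difference of the brightest (x axis, log2) and the second brightest (y axis, log2) kept probe set of each of 4914 genes, for replicate 2 minus replicate 1, 12 minus 2 months and TG minus WT. The cloud is widest and least drawn out along the diagonal for the replicate number (r = 0.258).

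Classes of probe sets differed in their share of calls. Probe sets with some probes shared with other sequences (suffix _x_at, 1528) were called lower in 22.3% and higher in 14.2%, against 12.8% both ways for unique probe sets (16280). Probe sets designed on expressed sequence tags (9507) were lower in 17.1% and higher in 11.1%, with a median of -0.02, whereas those designed on RefSeq messenger RNAs (3620) were higher in 17.3% and lower in 10.4%, with a median of 0.08. In all 4 pairs the median was above 0 for the RefSeq class and below 0 for the tag class. Tag-based probe sets were also dimmer than RefSeq ones (median signal 160 against 240), and _x_at ones brighter than unique ones (289 against 146). The part of the level in these differences was not tested.

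Gene families and pathways were counted next, each against the 13.6% higher and 12.7% lower among all genes. Calls were more frequent among bright genes. In the dimmest of 10 equal bins by mean signal 5.9% were higher and 4.02% lower, and in the brightest 23.4% and 18.1%. The median signal was 234 over all genes, 1583 for splicing and RNA binding and 1032 for respiratory chain genes. The part of the level in the list counts was not tested. The shares among all genes also fall when a pair is left out. Without the 2-month WT pair 4.43% of all genes were higher and 6.2% lower, and without the 2-month TG pair 7.83% and 7.81%. Without the 12-month WT pair the shares were 8.54% and 8.51%, and without the 12-month TG pair 12.1% and 12.1%. Counts with a pair left out are to be read against these shares. Cytosolic ribosomal protein genes led the higher side: 30 of 46 were called higher and 3 lower, with a median of 0.40 and pair medians of 0.44, 0.19, 0.44 and 0.50 in the order 2-month WT, 2-month TG, 12-month WT, 12-month TG. This direction depends on the scale, since under quantile normalization 3 were higher and 11 lower with a median of -0.03, and under cyclic loess 21 were higher and 3 lower with a median of 0.19. Their median signal, 9858, was the highest of all lists. Rps2, of the small subunit, read 8852, 9935, 8858 and 10822 on replicate 1 and 14462, 13860, 14515 and 17033 on replicate 2 arrays (0.64 ± 0.08). The 3 lower ones, Rpl39, Rps27 and Rps6, were named after their values were seen, and their differences were -0.51, -0.58 and -0.37. Rps6, the brightest of them, read 489 to 525 on replicate 1 and 373 to 400 on replicate 2 arrays. Without the 2-month WT pair 16 of the 46 were higher and 0 lower, and without the 12-month WT pair 19 and 2.

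Genes of the respiratory chain, the enzyme complexes of oxidative phosphorylation, had 31 of 89 called higher and 3 lower, with a median of 0.15 and pair medians between 0.15 and 0.19. Cox6a1 (0.56 ± 0.07), Ndufs7 (0.56 ± 0.08) and Cox6b1 (0.44 ± 0.07) were the firmest. Under quantile normalization 32 were higher and 3 lower. Without the 2-month WT pair 9 were higher (10.1%, against 4.43% of all genes). Without the 2-month TG pair it was 18 (20.2% against 7.83%), and without the 12-month WT pair 16 (18% against 8.54%). The lower ones were Atp5h, Ndufa4 and Sdha. Mitochondrial ribosomal proteins had 17 of 76 higher and 6 lower (median 0.10), with Mrpl45 at 0.72 ± 0.09, and 6 to 14 higher when single pairs were left out. Antigen presentation by MHC class II had 4 of 10 higher and 1 lower. Its invariant chain Cd74 read 9999 to 11414 against 18259 to 20643 (0.86 ± 0.08), in the range where scaling matters: under quantile normalization 3 of the 10 were higher and 3 lower, and Cd74 was at 0.24.

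Genes for splicing and RNA binding went the other way. Of 38, 20 were called lower and 2 higher, with a median of -0.30, and the 4 pair medians were -0.31, -0.31, -0.27 and -0.26. Hnrnpu read 3352, 3388, 3287 and 4323 on replicate 1 and 1790, 1862, 1825 and 2352 on replicate 2 arrays. Sfpq, a paraspeckle protein, read 1374 to 1766 against 820 to 1015 (-0.70 ± 0.08), and Pnisr, a serine and arginine rich nuclear protein, 659 to 840 against 138 to 334 (-1.59 ± 0.17). The 2 higher ones were Rbm25 and Son, and the second probe set of Rbm25 was lower. The count was 21 lower and 3 higher after quantile normalization, and 11 to 19 lower and 2 higher when single pairs were left out, with 11 without the 2-month WT pair and 13 without the 2-month TG or the 12-month WT pair. Zinc finger genes named Zfp, most of them DNA-binding repressors, had 51 of 220 lower and 16 higher (median -0.08), or 22 to 45 lower and 0 to 9 higher when single pairs were left out. Ubiquitin specific proteases had 10 of 41 lower and 2 higher (median 0.02), with 3 lower without the 2-month WT pair, 5 without the 2-month TG pair and 6 without the 12-month WT pair.

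**Figure D3:**
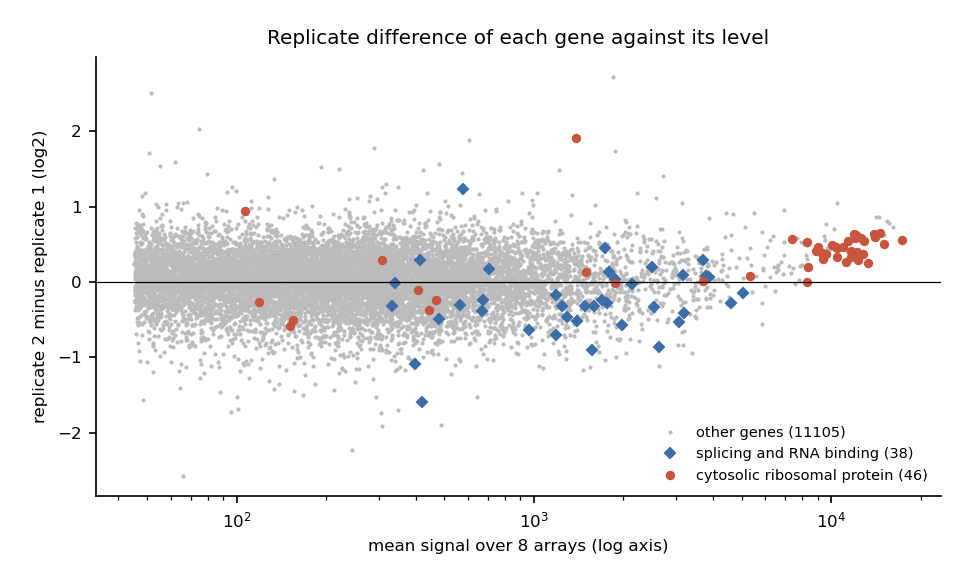
Replicate difference (log2) of each of 11189 genes against its mean signal over the 8 arrays (log axis), with 46 cytosolic ribosomal protein genes as circles and 38 splicing and RNA binding genes as diamonds. Most ribosomal protein genes lie at the bright end above 0, a shift that is -0.03 at the median after quantile normalization, and 11 of the 38 splicing genes lie above 0.

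Lists of genes with long or unstable transcripts gave mixed counts. Of 50 genes for giant proteins, 12 were called higher and 11 lower, with a median of 0.00 and pair medians from -0.03 to 0.01. In that list Golgb1, a Golgi tether, was higher (0.62 ± 0.10) and Rock1, a kinase of the cytoskeleton, lower (1373 to 1518 against 847 to 915, -0.69 ± 0.08). When probe sets of a gene were averaged the giant protein counts were 13 higher and 3 lower, and with single pairs left out 1 to 12 higher and 4 to 11 lower, fewest without the 2-month WT pair. Genes whose messages carry AU-rich elements, which mark cytokine and early response transcripts for decay, had 0 of 17 higher and 3 lower (median -0.11): Myc (-0.60 ± 0.13), Cd69 (-0.90 ± 0.20) and Bcl6 (-0.54 ± 0.12). The base composition of transcripts was not analysed here. Immediate early genes had 2 of 22 higher and 4 lower (median -0.22), with Jund at 1.18 ± 0.09 but Egr3 (-0.92 ± 0.09) and Jun (-0.70 ± 0.11) lower. Heat shock and folding genes had 4 of 22 higher and 1 lower, and interferon response genes 3 of 24 higher and 2 lower. Without the 2-month WT pair each had 1 higher and 0 lower, without the 12-month WT pair heat shock had 2 and 0, and without the 2-month TG pair interferon response had 1 and 1. Nuclear long noncoding RNAs had 5 of 14 higher and 2 lower. Malat1, the first of them, read 1009, 881, 404 and 705 on replicate 1 and 5987, 3628, 6907 and 3474 on replicate 2 arrays (2.72 ± 0.29, adjusted p 0.00165 by limma), while Ftx (-0.68 ± 0.13) and Snhg3 (-0.56 ± 0.11) were lower. The other higher ones were Gas5, Meg3, Snhg1 and Snhg12. These counts were 1 higher and 1 lower without the 2-month WT pair, 2 and 2 without the 12-month WT pair, 3 and 2 without either TG pair, and 1 and 3 with the probe sets of a gene averaged.

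A gradient appeared with the genomic span of a gene, its length from start to end including introns. Span was known for 11154 genes (99.7%). In the shortest of 10 equal bins (up to 4.36 kb), 20.8% were higher and 6.27% lower, with a median of 0.15, and in the longest bin (from 115 kb) 5.83% were higher and 17.3% lower, with a median of -0.06. The longest bin held genes up to 3171 kb. Spearman's rho across genes was -0.13, -0.13, -0.21 and -0.16 in the 4 pairs, which share no array. It was -0.15 for TG minus WT and 0.032 for 12 minus 2 months. Without the ribosomal, respiratory chain, zinc finger and splicing genes, 19.5% of the shortest bin were higher and 6.17% lower, against 5.81% and 17.2% of the longest. Under quantile normalization the shortest bin had 18.7% higher and the longest 6.03%. The gradient kept its direction without each pair in turn: the shortest bin had 7.71% to 16.1% higher and the longest 1.52% to 5.56%, lowest in both without the 2-month WT pair. Span is not transcript length, which was not analysed here, and short genes differ from long ones in many ways.

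**Figure D4:**
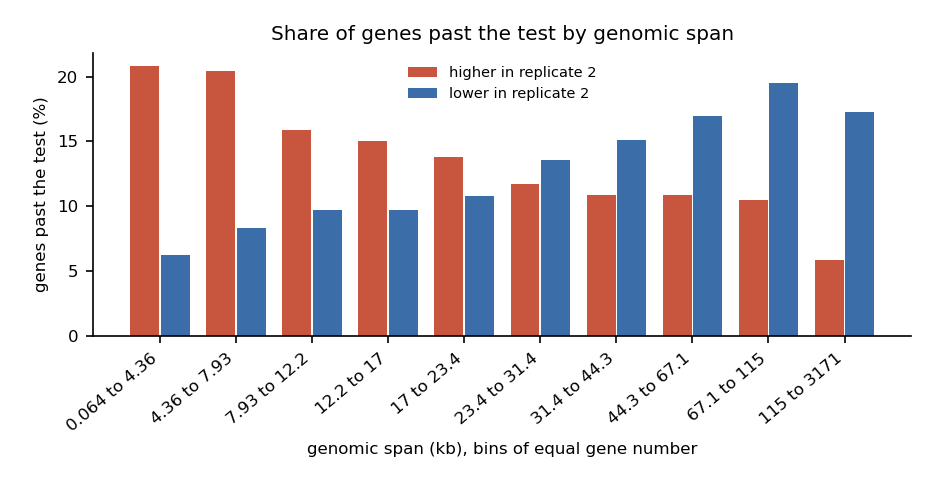
Share of genes (%) called higher (left bar of each pair) and lower (right bar) in replicate 2, in 10 bins of equal gene number by genomic span in kb. The higher share goes from 20.8% in the shortest bin to 5.83% in the longest, and the lower share from 6.27% to 17.3%.

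The composition of the promoter, the stretch around the start of transcription, related to the replicate difference only weakly. Windows of leading genes are shown because genes of both directions have windows rich in CG. RefSeq windows of 250 bases before to 50 after a start (GRCm38.p6) were matched for 80.9% of the genes, with a median GC content of 60.7% and a median of 20 CG steps over 11637 windows. Spearman's rho with the replicate difference was -0.034 for GC content and -0.074 for CG steps. In the bin of genes with most CG steps 13.1% were higher and 19.6% lower, and in the bin with fewest 11.6% and 8.5%. The windows of the first 2 genes per direction with a single listed start are given 5′ to 3′, with each CG in capitals. The first 2, of genes higher in replicate 2, have 31 and 34 CG steps, and the last 2, of genes lower in replicate 2, have 54 and 30, all above the median.
Rpl27a (chr7:109518945-109519244, + strand): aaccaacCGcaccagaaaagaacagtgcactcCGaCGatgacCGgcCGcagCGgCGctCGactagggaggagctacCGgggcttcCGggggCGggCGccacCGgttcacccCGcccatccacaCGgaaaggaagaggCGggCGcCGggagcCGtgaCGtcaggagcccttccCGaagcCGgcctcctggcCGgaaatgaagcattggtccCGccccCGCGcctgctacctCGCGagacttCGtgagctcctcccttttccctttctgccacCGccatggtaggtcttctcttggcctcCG
Sod1 (chr16:90220512-90220811, + strand): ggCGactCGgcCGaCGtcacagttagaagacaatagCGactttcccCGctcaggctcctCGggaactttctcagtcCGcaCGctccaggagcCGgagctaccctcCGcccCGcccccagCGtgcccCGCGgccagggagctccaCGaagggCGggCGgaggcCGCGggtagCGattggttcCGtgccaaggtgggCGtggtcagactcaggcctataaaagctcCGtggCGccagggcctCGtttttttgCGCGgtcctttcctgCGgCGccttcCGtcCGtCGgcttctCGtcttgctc
Alyref (chr11:120598316-120598615, - strand): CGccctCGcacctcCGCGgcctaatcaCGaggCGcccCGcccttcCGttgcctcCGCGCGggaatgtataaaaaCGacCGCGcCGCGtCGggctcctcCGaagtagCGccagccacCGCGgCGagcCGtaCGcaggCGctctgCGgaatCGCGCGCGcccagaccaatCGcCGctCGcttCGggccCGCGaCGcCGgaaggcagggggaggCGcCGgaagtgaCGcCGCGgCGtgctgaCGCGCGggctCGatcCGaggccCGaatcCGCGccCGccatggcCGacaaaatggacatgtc
Cdkn1b (chr6:134920151-134920450, + strand): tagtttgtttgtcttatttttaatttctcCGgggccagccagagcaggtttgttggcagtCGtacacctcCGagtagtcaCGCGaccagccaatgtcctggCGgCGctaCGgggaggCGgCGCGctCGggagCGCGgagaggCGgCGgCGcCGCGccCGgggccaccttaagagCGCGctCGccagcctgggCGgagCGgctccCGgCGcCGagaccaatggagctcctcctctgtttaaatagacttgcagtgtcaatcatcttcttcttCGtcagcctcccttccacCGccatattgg

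Markers of the cell types of the spleen gave a different picture, in which pairs disagreed. Their counts are again to be read against 13.6% higher and 12.7% lower among all genes. With a pair left out, the lower shares given above for that setting apply. Marker lists also differed in level, with a median signal of 747 for erythroid and 211 for megakaryocyte and platelet markers. The part of the level in these counts was not tested. In bulk RNA, fewer cells of a type and less RNA per cell cannot be told apart. Neutrophil markers had a median difference of 0.82, but the pair medians were 1.26, 1.53, -0.75 and 0.99, and 1 of 16 genes was called. S100a9, a calcium-binding protein of granulocytes, read 1782, 2149, 2699 and 2185 on replicate 1 and 6887, 6699, 1628 and 5568 on replicate 2 arrays. The 12-month WT pair thus ran opposite to the other 3. Without it 15 of 16 were called higher, with a median of 1.33, where 8.54% of all genes were called higher. That pair was singled out after its values were seen, so this rise was nearly fixed in advance. Without any other single pair 1 was called. The 16 markers stand for 1 cell type, so they are not 16 separate observations. Csf3r, the G-CSF receptor, was the gene called with all pairs (1.12 ± 0.24). The summed signal of the 16 markers with a probe set was 7621 to 11818 on replicate 1 and 6827 to 28766 on replicate 2 arrays.

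Erythroid markers had 8 of 25 called higher and 0 lower, with pair medians of 0.63, 1.31, -0.16 and 0.31. Alas2, the first enzyme of heme synthesis in red cells, read 1639, 1386, 2260 and 1494 on replicate 1 and 4076, 6944, 3434 and 3928 on replicate 2 arrays (1.4 ± 0.23). Cpox, another heme enzyme (1.44 ± 0.20), and Sptb, red cell spectrin (1.10 ± 0.21), were called higher as well. The count depended on the pairs, with 2 called without the 2-month WT pair, 4 without the 2-month TG pair and 13 without the 12-month WT pair. Their summed signal ran from 17272 to 31227 on replicate 1 and from 29235 to 48099 on replicate 2 arrays. Megakaryocyte and platelet markers had 5 of 17 higher and 0 lower, with Itga2b, the platelet integrin, at 0.71 ± 0.12 and a summed signal of 5110 to 8335 against 7652 to 9977. They too were near 0 in the 12-month WT pair (-0.03), and 2 were called without the 2-month WT or the 12-month TG pair, 3 without the 2-month TG pair and 8 without the 12-month WT pair. Stroma and endothelium markers had 9 of 26 higher and 0 lower (pair medians 0.22, 0.18, -0.05 and 0.24). Eng, a receptor of endothelium, read 381 to 549 against 698 to 918 (0.76 ± 0.08). Without the 2-month WT pair 1 of the 26 was called, and without the 2-month TG pair 4. The part of these cell types in the other counts was not tested.

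Lymphocyte markers diverged most in the 12-month TG pair. T cell markers had 1 of 21 higher (Cd5) and 3 lower (14.3%, near the 12.7% of all genes), and pair medians of 0.07, -0.18, 0.20 and -0.96. The 3 lower ones were Lef1 (-1.53 ± 0.16), Cd3g (-0.89 ± 0.16) and Bcl11b (-0.77 ± 0.18). NK and cytotoxic markers had 0 of 16 higher and 1 lower (Klrd1), with a pair median of -0.88 in the 12-month TG pair and 0.04 to 0.13 in the others. The summed T cell signal of the 12-month TG arrays was 14577 in replicate 1 and 7471 in replicate 2, and that of the NK markers 11566 and 6457. B cell markers had 3 of 21 higher (14.3%, near the 13.6% of all genes) and 0 lower. Their pair median was 0.62 in the 12-month TG pair and -0.07 to 0.19 in the others. Cd79a, a chain of the B cell receptor, read 3448, 3515, 3182 and 1796 against 5306, 4395, 5105 and 6092 (0.84 ± 0.21). In the 12-month TG group the replicate 1 array thus had more T and NK signal and the replicate 2 array more B cell signal. Without this pair the medians were 0.07 for T cell, 0.06 for NK and 0.03 for B cell markers, and 3 of the 16 NK markers were called higher. Plasma cell markers had 3 of 15 higher and 1 lower, macrophage and monocyte markers 4 of 22 and 2, dendritic cell markers 1 of 17 and 3, and mast cell and basophil markers 0 of 3 and 0. With single pairs left out, plasma cell markers had 1 to 5 higher, with 1 without either WT pair and 5 without the 12-month TG pair. Macrophage markers had 1 higher and 0 lower without either WT pair, and dendritic cell markers 0 higher and 1 lower without the 12-month WT pair.

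Markers of the exocrine pancreas, which lies beside the spleen, were high on 1 array. The 10 exocrine pancreas markers that passed the filter had a pair median of -4.63 in the 2-month WT pair, and between -0.48 and 0.33 in the others. The filter takes the mean over all arrays, so markers could pass it through that 1 array. The size of this median is therefore not read as a result. Cela2a, an elastase of pancreatic juice, read 3582 on the 2-month WT replicate 1 array and 4.2 to 116 on the other 7. The summed signal of the 18 markers with a probe set, taken without the filter, was 23873 on that array and 898 to 1467 on the other 7. Of the 10 measured, 1 was called higher (Klk1) and 1 lower (Cela2a, which could have passed the filter through that array). Of the 18, 1, Prss3, was under 16 on all arrays. Liver (1 measured, 1 higher), skeletal muscle (1 measured, 0 called) and adipocyte markers (6 measured, 1 higher) were mostly below the filter. The part of this array's pancreas signal in the other counts was not tested.

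**Figure D5:**
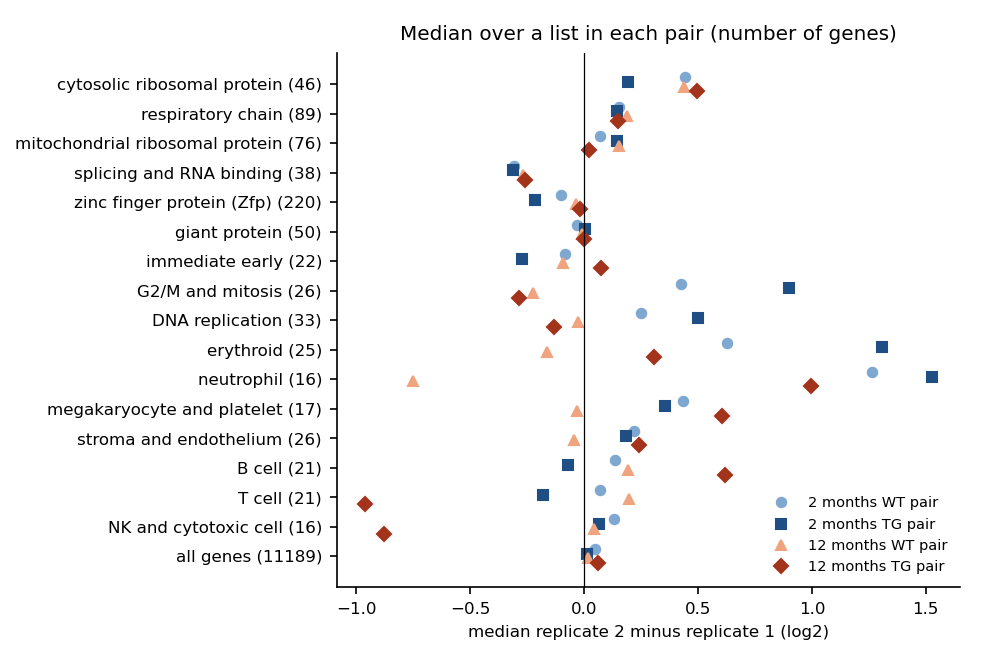
Median replicate difference (log2) of 16 lists and of all genes in each of the 4 pairs, 1 marker per pair, with the number of genes in brackets. The 4 pairs lie close together for respiratory chain and splicing genes and far apart for neutrophil, erythroid, T cell and mitosis genes; the ribosomal protein medians lie above 0 at the scale shown and not after quantile normalization.

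The pair medians of both proliferation lists had opposite signs at the 2 ages, though those of DNA replication genes were small at 12 months. This contrast was picked by its signs and was not tested over the lists. G2/M and mitosis genes had pair medians of 0.42 and 0.90 at 2 months and -0.22 and -0.29 at 12 months, and 0 of 26 were called in either direction. Cdk1, the mitotic kinase, read 275, 279, 414 and 675 on replicate 1 and 462, 701, 459 and 665 on replicate 2 arrays (0.53 ± 0.20, adjusted p 0.0846 by limma). DNA replication genes had 5 of 33 higher and 1 lower, with pair medians of 0.25, 0.50, -0.03 and -0.13. Fen1, a flap nuclease, was called (0.64 ± 0.09). The higher count was 2 without the 2-month WT pair, 3 without the 2-month TG pair and 10 without the 12-month TG pair. Without the 2-month TG pair the G2/M median was -0.06, and without the 12-month TG pair 3 of those 26 genes were called higher. None of these genes passed the test of a difference between ages. The genes with the smallest p in that test were Erdr1 (2.30 and 3.16 in the 2-month pairs, 0.02 and 0.46 in the 12-month pairs), Dbp, a clock-controlled factor (-1.15, -1.24, 0.36, 0.46), and Aqp9, a glycerol channel (0.82, 0.99, -0.66, -1.14), each at an adjusted p of 0.691 by limma. For genotype they were Prg2, Mpv17l and Kcnj10, at an adjusted p of 0.999.

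The number of genes called among the study's groups depended on whether the replicate number was in the model, and the paired fit called more. The limma F test over the 4 groups called 1 gene without it (0.00894% of 11189; 410 with an unadjusted p under 0.05), Gzma, and 14 genes (0.125%; 1448 unadjusted) with the replicate number as a block. Lgals1, a galectin, read 1462, 1950, 1231 and 3771 on replicate 1 and 1067, 1309, 806 and 2780 on replicate 2 arrays, the same order of the 4 groups in both (-0.51 ± 0.07). The others with the smallest p were Gzma, a granzyme of cytotoxic cells, Derl3, of the endoplasmic reticulum (0.60 ± 0.09), Fcer2a, an IgE receptor on B cells (0.55 ± 0.10), Ccr9, a chemokine receptor, and Mid1, a ubiquitin ligase (-0.89 ± 0.14). Of these 6, Lgals1, Derl3, Fcer2a and Mid1 differed also by replicate number, and Gzma (0.18 ± 0.17) and Ccr9 (-0.33 ± 0.14) did not pass that test.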

How the data were processed

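Each of 45101 probe sets had 1 signal per array, an intensity on a linear scale that the authors deposited after MAS5 analysis in GCOS 1.4, per the submitters' processing notes. The trimmed mean without the lowest and highest 2 percent was 150.001 on every array. Other processing steps are not given in the sources used here. Probe sets whose mean log2(signal + 16) was under the median of all (a signal of 45.3) were dropped, which left 22551. The brightest probe set with 1 symbol stood for each of 11189 genes. Symbols came from the platform annotation (34945 probe sets with 1 symbol, 932 with several, 9160 with none, 64 controls). limma 3.58.1 in R 4.3.3 fitted 4 group means and the replicate number, with an intensity trend and 3 residual degrees of freedom. Python 3.11.15, pandas 2.3.3 and numpy 2.4.6 did the rest, and the fit was tested on simulated data with 200 changed genes.

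Named are up to 12 genes per direction with the smallest p that moved 1 way in all pairs, up to 3 per list by absolute t, 6 from the F test, 3 per interaction, and any control. The members and lists were chosen with earlier results of these data known. Lists were described by counts and medians and given no test. Labels do not say that replicates were separate animals, so p-values measure the spread between these samples. Alternatives covered normalization, pseudocount, filter, probe set rule, trend, group term, block and single pairs left out.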

Additional observations from a re-analysis of the deposited data

Results flagged for a closer look

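Of 112 sets of 4 values, 11 had a value far from the other 3. Of independent sets of normal values about 1 in 20 would pass the same limit. The 112 sets share arrays and genes, and some hold genes picked in these data. The count of 11 is therefore not compared with that rate. The 12-month WT replicate 1 array had a beta-actin 3′ to 5′ ratio of 1.48, against 1.2 to 1.24 on the other replicate 1 arrays, and an 18S ratio of 1.9, against 1.13 to 1.2. In the 2-month WT pair the exocrine pancreas median was -4.63, against -0.476 to 0.334 in the other pairs. It covers markers that could pass the filter through the replicate 1 array of that pair.

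The 12-month TG pair stood apart from the other 3 in 4 lists. Its median was -0.298 for plasma cell markers (others 0.276 to 0.303), -0.88 for NK and cytotoxic markers (0.0443 to 0.13), -0.441 for glycolysis genes (0.174 to 0.215) and -0.162 for proteasome subunits (0.101 to 0.144). In the 2-month TG pair the dendritic cell median was -0.139 (others -0.0175 to -0.0126), the difference of Sp3 was -1.76 (others -1.98 to -1.96), and that of the 3′ control probe set of the transferrin receptor was 0.519 (others -0.621 to -0.464). Gpaa1 was at -1.93 in the 2-month WT pair and at -2.37 to -2.31 in the others.

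In 6 lists both pairs of 1 age or genotype lay on 1 side of 0 and both of the other on the opposite side. These differences were not tested. The lists were screened for both splits, and random signs would also give such lists, so the count is not read as a result. The kinesin list shares members with the G2/M list. By age, 12 minus 2 months, the mean of the pair medians differed by -0.919 for G2/M and mitosis genes, -0.454 for DNA replication genes and -0.269 for kinesins and dyneins. By genotype, TG minus WT, it differed by -0.706 for T cell markers, 0.328 for core and linker histones and 0.0252 for giant proteins.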

How the results depend on the processing

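Leaving out single pairs gave 1190 to 2709 called genes and 3003 to 5686 called probe sets, each fewest without the 2-month WT pair, with fewer samples per fit. The F test over the 4 groups called 1 gene, 14 with the replicate block, and 0 under cyclic loess, a pseudocount of 1, no filter, a filter at the upper quartile or no intensity trend; without single arrays it called 0 to 3 (3 without the 12-month TG replicate 2 array). With both interactions in 1 model 1 gene passed for age. Under quantile normalization the cytosolic ribosomal protein median was -0.0331, Igkv8-30 -0.0878, beta-actin 3′ -0.0230, CreX-3 -0.0555, CreX-5 -0.0417, cre-3 -0.17 and cre-5 -0.23. With the probe sets of a gene averaged, Ptp4a2 was at -0.0856, Ebf1 at -0.0230, Klk1 at -0.0308, Cct2 at -0.0246, H1f2 at -0.0018, Usp1 at 0.0089 and Kif5b at -0.10. The cause of these reversals was not tested. Of 518 list medians under other settings, 31, in 15 of 40 lists, had the sign opposite to the median as reported, among them T cell (0.07) and NK (0.06) markers without the 12-month TG pair, G2/M genes (-0.06) without the 2-month TG pair and adipocyte markers (-0.23) under the upper quartile filter. Of the gene differences, 1607 kept direction and call, 108 lost the call, 14 gained it and 8 reversed. The paired fit with the replicate block is the one behind the replicate differences. With 4 pairs, signals near background and changes under the spread of the pairs cannot be resolved.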
